A study of Mus musculus with 20 samples.

Results

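Ppara, the gene of the nuclear receptor PPARA, and 9 of its classic hepatic target genes were examined in the livers of mice on a high-fat diet, with or without a maple syrup extract. The members were the array probe sets whose platform annotation gives exactly 1 gene symbol and whose symbol is Ppara, Cyp4a10, Cyp4a14, Cyp4a31, Acot1, Acot2, Acot3, Acot4, Vnn1 or Pdk4. This rule found 15 probe sets of 9 genes, of 34945 probe sets of 18193 genes with 1 symbol, and no filter on level was applied. Cyp4a10 had no probe set of its own, since its only probe set is annotated to Cyp4a31 as well. Total liver RNA of 20 male C57BL/6J mice was hybridised to Affymetrix 3' expression arrays, with 1 array for each mouse. The 10 MSXH mice had eaten, for 4 weeks, a diet with 45 kcal% fat to which 0.02% of MSXH, the maple syrup extract, was added. The 10 HFD mice had eaten the 45 kcal% fat diet alone. All 20 mice were 8 weeks old by their labels and had been fasted for 16 h before the liver was taken. All were fed a high-fat diet, so no mouse here stands for a normal diet.

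PPARA is a transcription factor that binds fatty acids, pairs with the retinoid X receptor and binds direct repeats of a short motif in the DNA near its target genes. In the fasted liver it turns on the genes that take fatty acids up and burn them in mitochondria and peroxisomes. A side route of that program is omega-oxidation, in which CYP4A enzymes hydroxylate the last carbon of a fatty acid, and the resulting dicarboxylic acids are shortened in peroxisomes. Acyl-CoA thioesterases release free fatty acids and coenzyme A, VNN1 recycles the pantetheine part of coenzyme A, and PDK4 blocks the entry of pyruvate into the citric acid cycle. In mice these genes are among the most responsive to fasting and to PPARA agonists.

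The arrays held the RNA of liver. The 10 hepatocyte markers, with Alb, Ttr and Apoa1 among them, had a mean level of 13.731 to 13.737 in the MSXH mice and of 13.7305 to 13.738 in the HFD mice. Mice MSXH 4 and MSXH 6 stood apart: the mean level of 15 skeletal muscle markers was 7.91 and 7.38 on their arrays and at most 6.39 on the other 18, and 13 of the 15 markers had their highest values on these 2 arrays. Their array medians were 6.5226 and 6.5223, against 6.5216 to 6.5217 on the other 18, so results that turn on them are given with and without them. The deposited values are on a log scale of unstated base, and their spread is compressed: the median gene had an SD of 1.21e-05 over the 20 arrays. Values are therefore given as standardized levels (SDs from the mean of the 20 arrays) and standardized differences (MSXH minus HFD, in SDs pooled within groups), and not as folds. The number of arrays limits the precision. In a bulk sample, fewer cells of a type and less RNA per cell cannot be told apart.

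The promoters of the 4 thioesterase genes are shown first, because these genes lie side by side on mouse chromosome 12 and their levels followed each other from mouse to mouse. Each sequence runs from 250 bases before to 50 bases after the transcription start that RefSeq's annotation of GRCm38.p6 gives, on the plus strand. Capitals mark the single repeat unit AGGTCA on either strand, which reads TGACCT where it lies on the minus strand.
Acot2, chr12:83987611-83987910: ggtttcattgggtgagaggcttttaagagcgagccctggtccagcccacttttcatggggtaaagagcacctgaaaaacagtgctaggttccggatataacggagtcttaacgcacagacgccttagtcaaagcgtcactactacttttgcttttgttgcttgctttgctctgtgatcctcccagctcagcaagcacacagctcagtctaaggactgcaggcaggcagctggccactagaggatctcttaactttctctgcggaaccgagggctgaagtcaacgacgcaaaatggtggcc
Acot1, chr12:84009252-84009551: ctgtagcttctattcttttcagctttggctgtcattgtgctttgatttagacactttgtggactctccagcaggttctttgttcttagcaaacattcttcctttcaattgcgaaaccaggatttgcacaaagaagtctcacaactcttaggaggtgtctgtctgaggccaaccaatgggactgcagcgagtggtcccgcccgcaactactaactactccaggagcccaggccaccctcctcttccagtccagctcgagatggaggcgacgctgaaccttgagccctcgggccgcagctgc
Acot4, chr12:84038129-84038428: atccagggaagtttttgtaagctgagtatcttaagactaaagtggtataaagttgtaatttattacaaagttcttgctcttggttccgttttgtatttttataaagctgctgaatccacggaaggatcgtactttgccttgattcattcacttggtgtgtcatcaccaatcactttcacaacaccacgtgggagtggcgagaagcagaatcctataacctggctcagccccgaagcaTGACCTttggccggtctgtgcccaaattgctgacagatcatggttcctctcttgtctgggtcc
Acot3, chr12:84051894-84052193: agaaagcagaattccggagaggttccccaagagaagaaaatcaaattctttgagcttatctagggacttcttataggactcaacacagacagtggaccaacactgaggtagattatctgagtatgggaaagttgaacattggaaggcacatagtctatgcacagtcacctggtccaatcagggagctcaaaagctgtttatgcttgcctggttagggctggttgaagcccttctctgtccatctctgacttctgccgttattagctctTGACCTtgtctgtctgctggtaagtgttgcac

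The unit AGGTCA was found in the Acot4 promoter, with its first base at position -13, and in the Acot3 promoter, at position 18, counted from 0 at the start. These letters were not in the promoter windows of Acot1, Acot2, Ppara or Pdk4. For Acot4 and Ppara the annotated gene begins before the window, at chr12:84037254 and chr15:85734910, and the bases around that earlier position were not searched. AGGTCA occurs in 16.3% of the 32851 promoters of the same length, and 2 of the 6 members with a sequence hold it. The full direct repeat AGGNCANAGGNCA, searched on both strands, was in 0 of the 6 and in 0.381% of all promoters. Only exact matches were counted, so a repeat with a mismatched letter beside a marked unit would be missed. A match describes the letters only. The 4 genes span chr12:83987861-84060400, which is 72.5 kb.

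Setting MSXH against HFD addresses whether the extract altered this gene group under the fatty diet. No member passed the test in limma over all genes at an adjusted p of 0.05, and 0% of all 18193 genes did. At an unadjusted p under 0.05, 1 of the 9 genes was lower in MSXH, Cyp4a31, where 10.9% of all genes were called in either direction with 4.31% lower and 6.58% higher in MSXH. Over single probe sets, 2 of the 15 had an unadjusted p under 0.05, both of Cyp4a31, where 10.7% of all probe sets did. Without a test, 3 genes were higher in MSXH (Ppara, Cyp4a14 and Pdk4) and 6 were lower, where 45.3% of all genes were lower. The median standardized difference was -0.126 over the 9 genes and 0.0669 over all genes.

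Ppara itself was measured by 3 probe sets, and they pointed different ways. Its brightest probe set had standardized levels of -1.57, 0.628 and 1.95 (lowest, median, highest) in MSXH, against -1.63, -0.284 and 1.01 in HFD. The groups overlapped over most of their range, with the lowest values in mice MSXH 7 and HFD 9. Its standardized difference was 0.392 (95% interval -0.499 to 1.27, adjusted p = 0.781 in limma, 10 mice a group), and the MSXH mouse was higher in 58 of the 100 pairings of 1 MSXH mouse with 1 HFD mouse. The second and the other probe set had differences of 0.0682 and -0.286. The difference of the brightest probe set changed sign with the scaling of the arrays, to -0.388 after quantile normalization and -0.369 after centring each array on its median, where the median gene moved to -0.553 and -0.661. Without MSXH 4 and MSXH 6 it was 0.481 as deposited, 0.450 after quantile normalization and 0.473 after centring.

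The omega-hydroxylases are cytochromes P450 of a gene cluster on mouse chromosome 4. Cyp4a14, one of the most strongly PPARA-driven genes of mouse liver, had standardized levels of -1.56, 0.106 and 1.19 in MSXH and of -2.09, 0.223 and 1.12 in HFD. The groups lay on top of each other, and the lowest mouse of each was one that was not low in the thioesterases (MSXH 9 and HFD 5). Its standardized difference was 0.0119 (95% interval -0.865 to 0.888, adjusted p = 0.996 in limma), with the MSXH mouse higher in 48 of 100 pairs. It was -0.607 after centring, close to the median of all genes there, and -0.163 with centring but without MSXH 4 and MSXH 6.

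Cyp4a31, another member of the same hydroxylase family, was the member with the lowest levels in MSXH relative to HFD. Its brighter probe set had standardized levels of -2.32, -0.505 and 0.753 in MSXH, against -1.27, 0.435 and 1.94 in HFD. The lowest values were those of MSXH 7 and MSXH 8, the highest those of HFD 10 and HFD 4, and the ranges overlapped. Its standardized difference was -1.02 (95% interval -1.95 to -0.0730), with an unadjusted p of 0.0311 in limma and an adjusted p of 0.408, and the MSXH mouse was higher in 25 of 100 pairs. The second probe set gave -1.26 (95% interval -2.22 to -0.282, unadjusted p = 0.00958 and adjusted p = 0.325 in limma over all probe sets), with 18 of 100 pairs. The difference kept its sign without any 1 mouse, between -1.37 and -0.894. The unadjusted p was above 0.05 without MSXH 7, MSXH 8, HFD 4 or HFD 10, each left out alone.

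The probe set annotated to both Cyp4a31 and Cyp4a10 lies outside the rule, and the signals of the 2 genes cannot be told apart in it. Its standardized levels were -1.60, -0.399 and 1.52 in MSXH, against -2.41, 0.402 and 1.25 in HFD, and its difference was -0.258 (unadjusted p = 0.563 in limma). Its SD over the 20 arrays was 1.99e-05, against 1.21e-05 for the median gene. It followed Cyp4a31 with r = 0.845 and Cyp4a14 with r = 0.709 over the 20 mice.

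The acyl-CoA thioesterases cut fatty acyl-CoA into free fatty acid and coenzyme A, ACOT1 in the cytosol, ACOT2 in mitochondria, and ACOT3 and ACOT4 in peroxisomes. By the brightest probe set of each gene, all 4 were slightly lower in MSXH on average, and none by more than 0.363 pooled SDs. Acot1 had standardized levels of -2.25, -0.0802 and 1.53 in MSXH, against -1.20, 0.223 and 1.88 in HFD. Its difference was -0.363 (95% interval -1.24 to 0.526, adjusted p = 0.798 in limma).

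Acot2 had standardized levels of -1.49, 0.172 and 1.07 in MSXH, against -1.30, 0.0781 and 2.66 in HFD. Its difference was -0.126 (95% interval -1.002 to 0.753, adjusted p = 0.945 in limma), and its second probe set gave -0.241. The highest value of either group came from HFD 4 in both probe sets, far above the other HFD mice.

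Acot3 had one of the wider spreads of all genes, so that its levels can be read on the deposited scale. They were 6.80, 6.88 and 6.99 in MSXH and 6.80, 6.88 and 7.03 in HFD. The medians were alike to that precision, and HFD 4 was again highest. Its standardized difference was -0.0854 (95% interval -0.961 to 0.793, adjusted p = 0.965 in limma).

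Acot4 had standardized levels of -1.89, -0.142 and 1.30 in MSXH, against -1.61, 0.165 and 1.98 in HFD. Its difference was -0.348 (95% interval -1.23 to 0.540, adjusted p = 0.808 in limma), and its second probe set gave -0.427. MSXH 7, MSXH 8 and HFD 9 were the low mice, and HFD 4, MSXH 10 and MSXH 9 the high ones. A probe set annotated to both Acot2 and Acot1 lies outside the rule and gave -0.472 (unadjusted p = 0.295 in limma).

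Vnn1 encodes pantetheinase, the enzyme that splits pantetheine into pantothenate, the precursor of coenzyme A, and cysteamine. It had standardized levels of -2.43, 0.171 and 1.33 in MSXH, against -0.857, 0.216 and 1.31 in HFD. The medians and the upper ends were close, and the low end in MSXH came from MSXH 7 and MSXH 8. Its difference was -0.439 (95% interval -1.32 to 0.455, adjusted p = 0.754 in limma), and its second probe set gave -0.498.

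Pdk4 encodes the kinase that shuts pyruvate dehydrogenase during fasting, in muscle as well as in liver. Its levels on the deposited scale were 7.31, 7.41 and 8.02 in MSXH, against 7.37, 7.52 and 7.69 in HFD. The MSXH mice were the more scattered, with an SD of 0.234 against 0.0889 in HFD. The highest value was that of MSXH 4, the mouse with the highest muscle markers. The standardized difference was 0.0851 (95% interval -0.793 to 0.961, adjusted p = 0.966 in limma), with the MSXH mouse higher in 42 of 100 pairs. Without MSXH 4 and MSXH 6 it was -0.485 (95% interval -1.42 to 0.4665, adjusted p = 0.757).

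**Figure D1:**
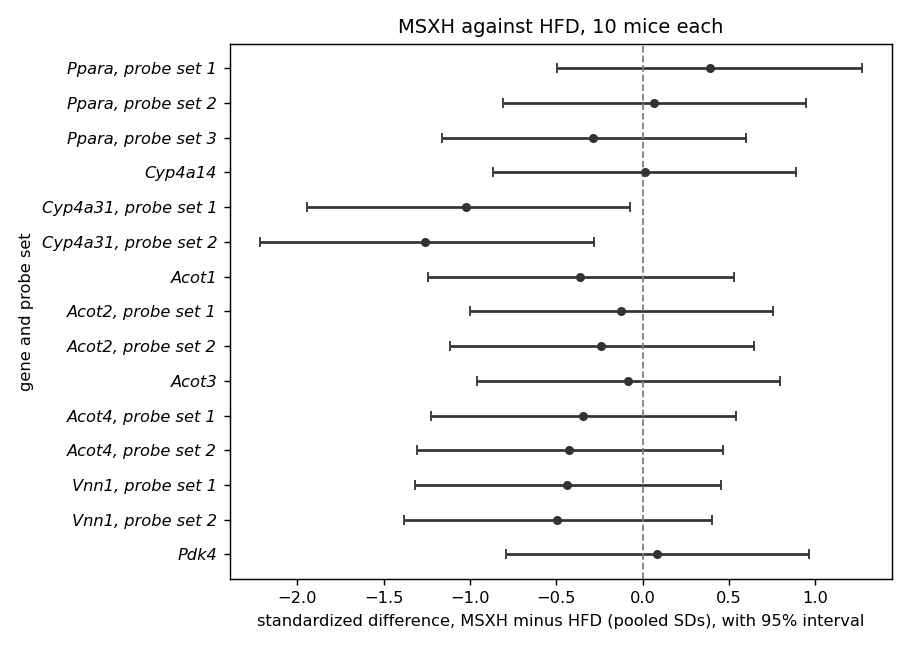
Standardized difference, MSXH minus HFD, of each of the 15 probe sets in pooled SDs (points), with its 95% interval (bars), for 10 mice a group. The intervals of 13 probe sets include 0, and those of the 2 Cyp4a31 probe sets end at -0.0730 and -0.282.

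Although the groups did not differ past the threshold, the mice differed in these genes more than in most genes on the deposited scale. All 9 genes were among the 10% of genes with the largest SD over the 20 arrays. Pdk4 had an SD of 0.172 on the deposited log scale, and 16 of the 18193 genes had a larger one. Acot3 had an SD of 0.0626, exceeded by 40 genes, and Vnn1 an SD of 0.00790, exceeded by 165. Those of Cyp4a31, Acot4, Acot2 and Acot1 lay between 0.00345 and 0.00166, exceeded by 279 to 424 genes. Cyp4a14 and Ppara were the least variable of the 9, with 8.74% and 9.78% of genes above them.

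The same few mice stood at the ends. MSXH 7 and MSXH 8 were below the mean in 8 of the 9 genes each, with mean standardized levels over the genes of -1.53 and -1.14. HFD 9 and HFD 2 followed, with -0.773 and -0.622. At the other end, HFD 4 was above the mean in 8 of 9 genes, with a mean of 1.44, and MSXH 10 and HFD 10 had means of 0.936 and 0.792. The 4 thioesterase genes ran from -2.25 to -1.33 in MSXH 7 and from 1.88 to 2.66 in HFD 4. Low and high mice were thus found in both diet groups.

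**Figure D2:**
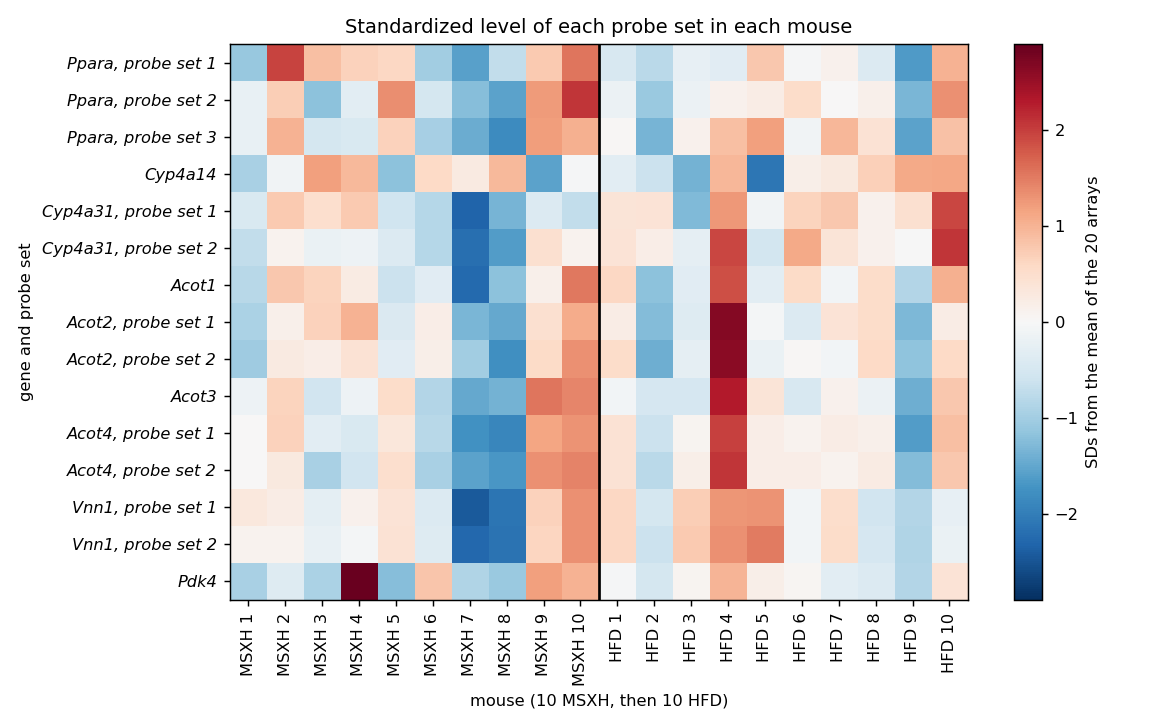
Standardized level (SDs from the mean of the 20 arrays, colour) of each of the 15 probe sets (down) in each mouse (across, the 10 MSXH mice left of the line and the 10 HFD mice right of it). Columns MSXH 7 and MSXH 8 are blue for most genes and HFD 4 is red for most, while Cyp4a14 does not follow the other genes.

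To ask whether the genes varied together, each pair was correlated over the 20 mice after the mean of each diet group was subtracted, so that the diet contrast plays no part. Of the 36 pairs, 19 passed an adjusted p of 0.05 (permutation test of Pearson's r, Benjamini-Hochberg over the 36), all of them positive, and 18 did by Spearman's rho. The median r was 0.519, and 32 of the 36 were above 0. Without MSXH 7 the count was 13, and without MSXH 4 it was 24.

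The 6 pairs of the thioesterases had a median r of 0.796, against 0.519 over all 36. Acot3 and Acot4 had r = 0.957 and rho = 0.944 (permutation tests, adjusted p = 0.000120 and 0.000360). Each was the nearest of all 18192 other genes to the other. The value was 0.973 within the MSXH mice, 0.939 within the HFD mice and 0.949 after the 2 mice with the most extreme Acot3 levels, by distance from the median, were left out. Acot1 and Acot2 had r = 0.864 and rho = 0.806 (permutation tests, adjusted p = 0.000120 and 0.00126), with 0.880 within MSXH and 0.875 within HFD. The other 4 thioesterase pairs had r between 0.747 and 0.817. All 6 pairs passed by r after quantile normalization, after centring, without MSXH 4 and MSXH 6, and without any 1 mouse. By rho, 4 of the 6 passed without MSXH 7, MSXH 8 or HFD 4, and 5 without HFD 2, each left out alone.

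These 4 genes are close paralogs, the probe set of Acot3 is of the kind that can match several transcripts, and probe sequences were not used here. RNA of one paralog read by the probes of another therefore cannot be told apart from genes that vary together. Vnn1 is no paralog of them and lies on chromosome 10. It had r = 0.832 with Acot4 (rho = 0.758, permutation tests, adjusted p = 0.000120 and 0.00168), 0.783 with Acot3, 0.656 with Acot2 and 0.652 with Acot1. The values with Acot4 were 0.938 within MSXH and 0.656 within HFD. Acot1 with Vnn1 did not pass by rho (0.444, permutation test, adjusted p = 0.0953) and had r = 0.422 after the 2 mice with the most extreme Acot1 levels were left out. The 10 pairs of Acot1 to Acot4 and Vnn1 passed by r under both scalings, with and without MSXH 4 and MSXH 6. Without MSXH 7 alone 9 of the 10 passed by r, all but Acot1 with Vnn1. By rho, 9 of the 10 passed as deposited, 10 after quantile normalization and 8 after centring. Only 6 passed by rho without MSXH 7, MSXH 8 or HFD 4, each left out alone. Of these 6, 4 were thioesterase pairs in each case. Without any other 1 mouse, 7 to 10 passed by rho.

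**Figure D3:**
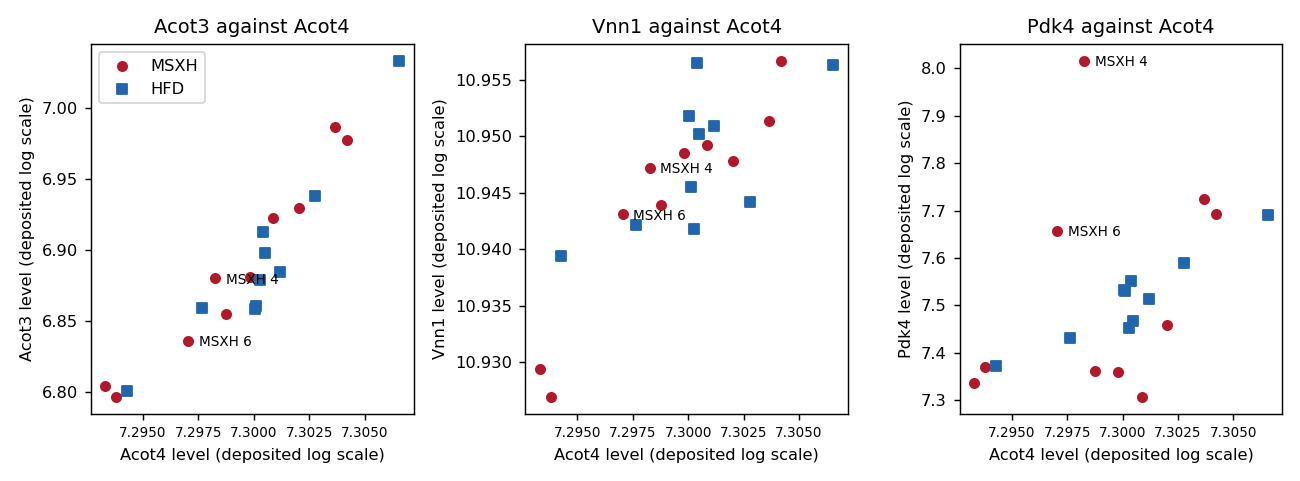
Levels on the deposited log scale of Acot3, Vnn1 and Pdk4 (vertical axes) against Acot4 (horizontal axes), 1 point a mouse, red circles for MSXH and blue squares for HFD. Acot3 follows Acot4 in both groups (r = 0.957), and in the plot of Pdk4 the muscle-rich arrays MSXH 4 and MSXH 6 lie above the mice with similar Acot4 levels.

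By r, the correlations of Pdk4 with this group turned on MSXH 4, the array with the highest muscle markers. By rho, 2 of the 5 pairs passed with and without that mouse, and the part of muscle RNA was not tested. Over the 20 mice it passed by r with Acot2 alone (r = 0.646, rho = 0.648, permutation tests, adjusted p = 0.00212 and 0.0141), and by rho with Acot1 as well (rho = 0.529, permutation test, adjusted p = 0.0448). Its r with Acot4 was 0.426. Without MSXH 4 and MSXH 6 its r was 0.797 with Acot3, 0.765 with Acot4, 0.680 with Acot2, 0.659 with Acot1 and 0.614 with Vnn1, and all 5 passed (permutation test, highest adjusted p = 0.0399). Without MSXH 4 alone 5 of the 5 passed by r and 2 by rho, and without MSXH 6 alone 1 passed by r and 3 by rho. Within the 10 HFD mice, none of which had raised muscle markers, Pdk4 and Acot4 had r = 0.928, and within the 10 MSXH mice r = 0.299. The difference between the 2 groups was not tested.

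Ppara, the receptor, went with its targets in the deposited values. It had r = 0.698 with Acot1 (rho = 0.689, permutation tests, adjusted p = 0.00347 and 0.00715), 0.689 with Acot4, 0.651 with Acot3, 0.622 with Vnn1, 0.547 with Cyp4a31 and 0.524 with Acot2, all past the threshold by r. With Cyp4a31 it was 0.327, and with Acot1 0.590, after the 2 mice with the most extreme Ppara levels were left out. Of its 5 pairs with Acot1 to Acot4 and Vnn1, 3 passed without MSXH 7, and 4 passed without MSXH 1, MSXH 3, MSXH 8, MSXH 10 or HFD 9, each left out alone. Acot1 was the 29th and Acot4 the 37th nearest of 18192 genes. These correlations depended on how the arrays were scaled. With the 5 genes Acot1 to Acot4 and Vnn1 the median r of Ppara was 0.651, but 0.146 after quantile normalization and 0.398 after centring, and 0 of 5 pairs then passed by r. The SD of the brightest Ppara probe set, 0.000139, is smaller than the SD of the 20 array medians, 0.000251. A change of scale of that size thus outweighs that probe set's own variation. The second and the other Ppara probe set had SDs of 0.000445 and 0.000193, and neither was used in these correlations. Without MSXH 4 and MSXH 6 the SD of the medians was 3.28e-05. There 5 of the 5 pairs passed as deposited, 4 after centring and 0 after quantile normalization, where the median r was 0.0138.

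Cyp4a14 stood outside the group. In the deposited values none of its 8 pairs passed by r, and they ran from -0.469 to 0.391. The lowest was with Vnn1 (r = -0.469, adjusted p = 0.0628, and rho = -0.543, adjusted p = 0.0376, permutation tests). After centring, 2 of the 8 passed by r, those with Ppara (0.634) and Pdk4 (-0.627). After quantile normalization Cyp4a14 had the same value on every array, so it could not be fitted there. Cyp4a31 had r = 0.645 with Acot1 (rho = 0.589, permutation tests, adjusted p = 0.00790 and 0.0271), 0.514 with Acot2 and 0.391 with its family member Cyp4a14.

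**Figure D4:**
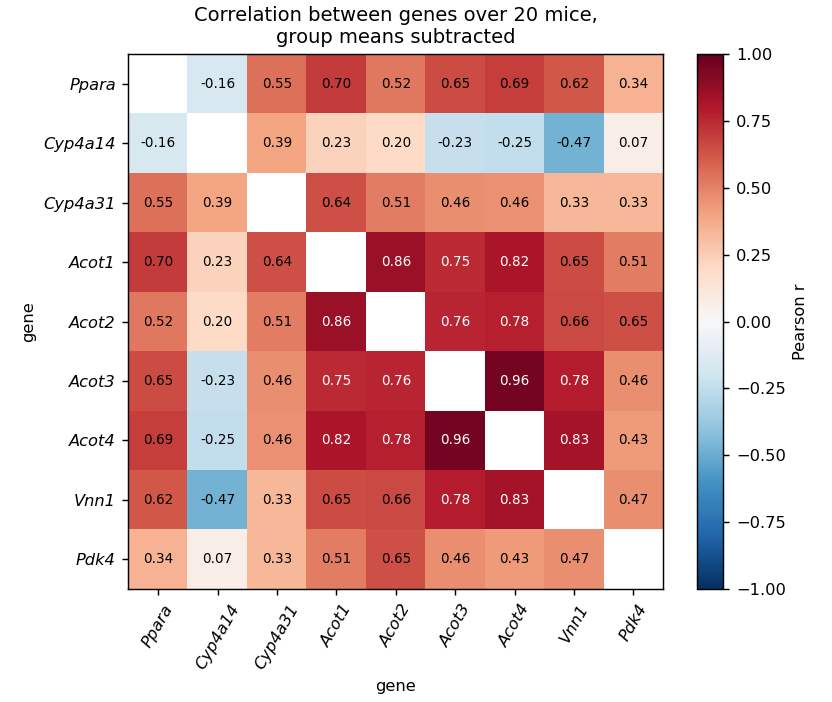
Pearson r between each pair of the 9 genes over 20 mice with group means subtracted (colour and number). The block of Acot1 to Acot4 and Vnn1 runs from 0.652 to 0.957, and Cyp4a14 ranges from -0.469 to 0.391 with the others.

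Probe sets of the same gene give a check of how much of this variation is signal of the gene. The 2 probe sets of Vnn1 had r = 0.995 over the 20 mice, those of Acot4 0.974, those of Acot2 0.960 and those of Cyp4a31 0.803. The 3 pairs of Ppara probe sets had 0.713, 0.786 and 0.864. Over all 9010 genes with several probe sets the median was 0.280, the 90th percentile was 0.817, and 5.04% were above 0.9. These are descriptions, since the 2 probe sets of a gene share their arrays.

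Genes outside the group were searched for likeness to the mean profile of Cyp4a14 and Cyp4a31 and to Ppara, not to the group as a whole. Cyp4a14 and Cyp4a31 had r = 0.391 with each other. The search covered the 9088 genes above the median gene in level, by r over 20 mice with group means subtracted and with no test. The mean profile of Cyp4a14 and Cyp4a31 was closest to Acacb (r = 0.912), the mitochondrial acetyl-CoA carboxylase, and Pnpla2 (r = 0.901), the triglyceride lipase of lipid droplets. Ccl6 (a chemokine), Glrx (glutaredoxin) and Fbxo31 (an F-box protein) followed, with 0.846, 0.842 and 0.831. It was most opposed to Tcea3 (r = -0.893), an elongation factor, Fgg (r = -0.861), the fibrinogen gamma chain, and Col5a3 (r = -0.859), a collagen chain. After quantile normalization Cyp4a14 did not vary, so these genes were set against Cyp4a31 alone. There Acacb, Pnpla2, Ccl6, Glrx and Fbxo31 had 0.505, 0.656, 0.436, 0.485 and 0.0920, values in which both the scaling and the profile differ. Against the mean profile of both genes, Acacb and Pnpla2 had 0.646 and 0.744 after centring, and the values of Tcea3, Fgg and Col5a3 were then -0.190, 0.433 and 0.00108. Ppara was closest to Chchd10 (r = 0.796), Irak2 (r = 0.783) and Slc25a38 (r = 0.778), which code for a mitochondrial protein, a kinase of innate immune signalling and a mitochondrial glycine carrier.

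The wider pathway was read from lists of genes by role, and none of their genes passed an adjusted p of 0.05 in limma. Of 43 measured other PPARA targets, 15 were higher and 28 lower in MSXH, with a median standardized difference of -0.233 against 0.0669 over all genes. At an unadjusted p under 0.05 there was 1 in each direction. Cidea, a lipid droplet protein, had 1.10 (95% interval 0.144 to 2.04, adjusted p = 0.371 in limma), and Decr2, the peroxisomal dienoyl-CoA reductase, had -0.948 (95% interval -1.87 to -0.00786, adjusted p = 0.442 in limma). Eci2, an enoyl-CoA isomerase of peroxisomes, had -0.918.

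The enzymes that share the members' chemistry showed no common direction. Of 13 measured other omega-oxidation enzymes 4 were higher and 9 lower, with 0 at an unadjusted p under 0.05, and Cyp4f13, Cyp4f16 and Cyp4f15 had -0.778, 0.607 and 0.571. Of 11 other thioesterases 6 were higher and 5 lower, and Acot7, a cytosolic thioesterase best known from brain, had 1.42 (unadjusted p = 0.00719 and adjusted p = 0.296 in limma). Acot9 and Them4 had 0.905 and -0.819. Of 11 genes of pantetheine and coenzyme A supply 7 were higher and 4 lower. Coasy, which makes coenzyme A, had 1.02 (unadjusted p = 0.0841 and adjusted p = 0.534 in limma), and Pank4 and Vnn3 had 0.650 and -0.556.

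Of the 5 other pyruvate dehydrogenase kinases and phosphatases, 3 were higher and 2 lower, all within 0.221 pooled SDs. Of 16 partners and coregulators of PPARA 9 were higher and 7 lower. Rxra, the retinoid X receptor that pairs with PPARA, had 1.10, the coactivator Ncoa2 had -0.703 and the deacetylase Sirt1 had -0.616. The values of Rxra, Acot7, Coasy and Cidea were below 0 after either scaling, as were those of most genes.

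The same lists were read for how closely their genes followed the members over the mice, as a description with no test. In the deposited values the 43 other PPARA targets had a median r of 0.446 with Acot4, against -0.0313 over all genes. Of these targets, 16 (37.2%) were above 0.6 with Acot4, where 2.43% of all genes were. With Vnn1 it was 15 of 43 (34.9%) against 3.46%, and with Ppara 9 of 43 (20.9%) against 0.912%. Closest to Acot4 were Fitm2 (r = 0.882), which helps to form lipid droplets, Acaa1b (0.820), a peroxisomal thiolase, Pex11a (0.819), which drives the division of peroxisomes, and Fabp1 (0.800), the liver's fatty acid binding protein. Hadhb, a subunit of the mitochondrial trifunctional protein, was closest to Vnn1 (0.882).

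Not all targets took part in this. Plin5, a lipid droplet protein, had r = -0.378 with Acot4, and Cidea had -0.475. Cpt1a, the gate of mitochondrial fatty acid entry, had 0.389, below 0.6 but close to the median of the targets (0.446). The partners of PPARA had a median r of -0.190 with Acot4. The gap between the medians of the targets and of all genes depended on the scaling. With Acot4 the medians were 0.243 against 0.192 after centring, and 0.203 (36 targets) against 0.217 after quantile normalization. Without MSXH 4 and MSXH 6 they were 0.144 against -0.203 after centring, and 0.145 (27 targets) against -0.132 after quantile normalization. After centring, the share above 0.6 with Acot4 was 13.95% of the targets against 0.731% of all genes. With Vnn1 it was 3 of 43 targets (6.98%) against 0.874%, and with Ppara 79.1% of the targets against 93.8% of all genes. Without MSXH 4 and MSXH 6 the centred shares were 23.3% against 1.24% with Acot4, 18.6% against 2.01% with Vnn1 and 18.6% against 0.313% with Ppara. After quantile normalization of the 20 arrays, 5 of the 36 targets that could be fitted were above 0.6 with Acot4, 5 with Vnn1 and 9 with Ppara, against 0.828%, 0.845% and 83.3% of all genes. In the deposited values the 10 macrophage and Kupffer cell markers had a median r of 0.453 with Acot4, as high as that of the targets, with 0 of 10 above 0.6. The hepatocyte, skeletal muscle and adipocyte markers had medians of -0.338, -0.132 and -0.197 with Acot4. The macrophage and Kupffer cell markers had 0.388 with Acot4 after centring and 0.251 after quantile normalization, above the medians of the targets there. Without MSXH 4 and MSXH 6 these markers had 0.449 after centring, above the targets, and 0.102 after quantile normalization, below them. With Vnn1 the centred medians were 0.218 for these markers and -0.0208 for the targets. The part of these cell types in the correlations was not tested.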

How the data were processed

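Total RNA (200 ng a mouse) was biotin-labelled for Affymetrix 3' arrays, per the labels' protocols. The deposited values are log2-like levels of probe sets between 5.17 and 15.01: the log2 base is inferred from that range, and how they were normalized and summarized is not stated in the labels or headers used. Probe sets were named from the platform's gene table, and the gene IDs of 34741 probe sets were found in GRCm38.p6. Another 932 probe sets had several symbols and 9211 were not listed, and all of these were left out of the fits. A gene was read from its probe set with the highest mean. Groups came from the sample titles, which call each array a biological replicate. Mice on a low-fat diet or on more extract were not analysed here.

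limma 3.58.1 (R 4.3.3) was fitted to the deposited values over all genes, and again over all probe sets, with a variance trend, two-sided, with the Benjamini-Hochberg adjustment at 0.05. Intervals at 95% came from the noncentral t distribution. Correlations used 100000 permutations within groups (Python 3.11.15, scipy 1.17.1, numpy 2.4.6). The fits were tested on simulated data. The text names all members, the 3 genes of smallest p of each pathway list, the nearest patterns by r, and, as examples chosen after their values were seen, Fitm2, Acaa1b, Pex11a, Fabp1, Hadhb, Plin5 and Cpt1a. The members, lists and tests were chosen with earlier results of these data known. Alternatives changed the scaling, the level filter, the probe set used, the variance model, the array weights, the test, the replicate block and the arrays included. Mice that share a replicate number had correlations of -0.270 to 0.167. No pairing by number was seen in these values, which does not show that there is none, and the main fits treated the mice as unpaired.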

Additional observations from a re-analysis of the deposited data

Results flagged for a closer look

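Mouse HFD 4 lay far above the other HFD mice in both probe sets of Acot2, the mitochondrial acyl-CoA thioesterase. Its gap to the next mouse was 0.539 of the range of the HFD group in the brighter probe set and 0.504 in the other, above Dixon's 95% critical value for 10 samples. Of the 30 groups of values tested, these were the 2 past that value, and chance alone gives about 1 in 20, so the count is near that rate. The 2 probe sets read the same gene in the same mice (r = 0.960), so they do not count as separate outliers. HFD 4 was also the highest HFD mouse for Acot1, Acot3, Acot4 and Pdk4. Without it the standardized difference of Acot2 was 0.194.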

How the results depend on the processing

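No gene passed an adjusted p of 0.05 in limma as deposited, where 1982 of 18193 had an unadjusted p under 0.05, and 0 passed in the rank sum test. The count was 1 when the probe sets of a gene were averaged and 0 to 3 without 1 mouse (3 without HFD 3), and no member was among them. Of the 1982, 1197 were higher in MSXH, against 16 of 735 after quantile normalization and 20 of 210 after centring, where the median standardized difference of all genes was -0.553 and -0.661. Members at an unadjusted p under 0.05 numbered 0 in the rank sum test, and 0 to 1 without 1 mouse. With the replicate number as a replicate block, 0 genes passed the adjusted p, 0 member genes and 1 of the 15 probe sets had an unadjusted p under 0.05. Members higher in MSXH numbered 1 after centring and 1 (without MSXH 4) to 5 (without HFD 4) without 1 mouse. Over these the difference of Acot2 ran from -0.282 to 0.194, that of Acot3 from -0.272 to 0.183, that of Cyp4a14 from -0.241 to 0.191 and that of Pdk4 from -0.295 to 0.229.

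Values that turned their sign were, with array weights, Cyp4a14 (-0.154) and Acot3 (0.00216). After centring they were Ppara -0.369, Cyp4a14 -0.607, Rxra -0.655, Cyp4f16 -0.617, Cyp4f15 -0.458, Acot7 -0.618, Acot9 -0.2925, Coasy -0.648, Pank4 -0.656, Pdp1 -0.665 and Cidea -0.617. After quantile normalization they were Ppara -0.388, Acot2 0.0133, Rxra -0.320, Cyp4f16 -0.439, Cyp4f15 -0.540, Acot7 -0.262, Acot9 -0.230, Coasy -0.513, Pank4 -0.731, Pdp1 -0.723 and Cidea -0.758. Without MSXH 4 and MSXH 6 they were Cyp4a14 -0.167, Acot3 0.0258 and Pdk4 -0.485, also with centring (Cyp4a14 -0.163, Acot3 0.0258, Pdk4 -0.485), and with quantile normalization Acot2 0.0400, Acot3 0.0268 and Pdk4 -0.483. Correlations that turned after centring were Ppara with Cyp4a14 (0.634) and Pdk4 (-0.442), Cyp4a14 with Acot2 (-0.0370), Acot4 (0.00818) and Pdk4 (-0.627), and the Cyp4a profile with Fgg (0.433) and Col5a3 (0.00108). After quantile normalization these were Ppara with Vnn1 (-0.0531) and Pdk4 (-0.618), and without MSXH 4 and MSXH 6 -0.178 and -0.121. Cyp4a14 with Pdk4 was -0.1995 without those mice, and -0.264 with centring as well. The pairs past the threshold numbered 22 of 36 without those mice, 14 of 36 after centring and 14 of 28 after quantile normalization. The alternatives on the pathway lists, on the nearest patterns, on single mice for the correlations, and on the correlations with both changes were chosen after seeing the data. The cause of these changes was not tested.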
